A study of Mus musculus with 18 samples.

Results

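10 genes that mark or drive the T helper 1 (Th1) state of CD4 T cells were followed over 18 libraries. They were Tbx21, Stat4 and Runx3, which encode transcription factors, Il12rb2 and Il18r1, which encode cytokine receptor chains, the chemokine receptor genes Cxcr3 and Cxcr6, and the effector genes Ccl5, Nkg7 and Ms4a4b. They were taken by name, as the rows whose Entrez identifier carries one of these mouse symbols. The names were chosen with earlier results of these data known, so counts of members called describe these libraries and are not an independent test. All 10 were found among the 27179 genes listed, and all 10 were among the 11735 genes that passed the filter on low counts. The libraries came from mouse CD4 T cells that carried a floxed Maf allele in every group (Maf fl/fl) and the label CD4Cre+ or CD4Cre-. The CD4Cre transgene removes floxed sequence during T cell development, and the product of Maf is the transcription factor c-Maf. Naive cells were activated in vitro on plate-bound antibodies to CD3 and CD28 and cultured for 3.5 days in a treatment called Tfh_5, Tfh_1 or Tfh_A, then sorted by flow cytometry. Each of the 6 groups (CD4Cre+ in Tfh_5, Tfh_1 and Tfh_A, and CD4Cre- in Tfh_5, Tfh_1 and Tfh_A) held 3 libraries, numbered 1, 3 and 6 with the label CD4Cre+ and 2, 4 and 5 with the label CD4Cre-. The sources used here do not give what the treatments contain, the age of the mice or whether a number stands for a mouse. The p-values therefore measure only the spread between these libraries, and that spread may be technical. The title of the series places c-Maf between TGF-β and the choice of a follicular helper (Tfh) or a Th17 fate.

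Th1 cells arise when interferon-γ and IL-12 act on an activated CD4 T cell. Interferon-γ induces T-bet, the T-box factor encoded by Tbx21. IL-12 signals through a receptor that includes the chain encoded by Il12rb2, and activates STAT4. T-bet, together with Runx3, opens genes for interferon-γ, for the chemokine receptor CXCR3 and for cytotoxic and chemotactic effectors, and the IL-18 receptor chain encoded by Il18r1 lets the cell respond to IL-18. TGF-β is known to restrain this program in CD4 T cells.

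Libraries held 6424874 to 9236153 counts each, of which the 2 most abundant identifiers took 19.7% to 46.2%. Levels are in CPM, counts scaled by a library size that TMM factors adjust, and are compared within a gene only. The check of the floxed gene went against the labels in all 18 libraries. Maf (chromosome 8, 115703253 to 115706894, mm10) averaged 349 ± 42.00 CPM in Tfh_5, 221 ± 34.3 in Tfh_1 and 11.97 ± 9.52 in Tfh_A with the label CD4Cre+ (SD, n = 3 each). Maf averaged, with the label CD4Cre-, 0 CPM in Tfh_5, 0.675 ± 1.17 in Tfh_1 and 0.0899 ± 0.156 in Tfh_A. No source used here gives the floxed part of Maf. Genotype comparisons are therefore made between libraries by label, and their directions rest on labels that go against the Maf level. The 10 markers of CD4 T cells summed to 3539 to 4091 CPM in Tfh_5 and 3872 to 4196 in Tfh_1, against 2279.8 to 2805 CPM in Tfh_A, with the label CD4Cre+. Their sums with the label CD4Cre- were 2520.1 to 3259 CPM in Tfh_5 and 2682 to 3099 in Tfh_1, against 2179 to 2208 CPM in Tfh_A. They were thus lower in every Tfh_A library than in any other library of its label, and their part in the results was not tested. The 2 CD8 T cell markers summed to at most 7.83 CPM. Bcl6, the factor that defines Tfh cells, was listed at 0 in all 18 libraries. The NK and innate lymphoid markers, of which 9 of 9 were matched, summed to 8.43 to 66.1 CPM, with Ncr1, Klra8 and Klra4 at 0 in every library.

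More of the Th1-type genes were called in Tfh_5 or Tfh_1 against Tfh_A than between genotype labels or between Tfh_5 and Tfh_1, and the plot of all members by library shows their levels. In libraries labelled CD4Cre+, 5 of 10 members passed edgeR's quasi-likelihood test (adjusted p under 0.05 over all 11735 genes) in Tfh_5 against Tfh_A, 1 higher, where 2.39% of all genes were, and 4 lower, where 3.00% were. In Tfh_1 against Tfh_A with the same label, 1 member was higher (1.58% of all genes) and 4 were lower (0.997%). In libraries labelled CD4Cre-, 1 was higher (3.17% of all genes) and 3 were lower (1.91%) in Tfh_5 against Tfh_A. In Tfh_1 against Tfh_A with that label, 1 was higher (1.50% of all genes) and 4 were lower (0.733%). Nkg7 and Ms4a4b were lower and Cxcr6 higher in all 4 of these comparisons, which share the Tfh_A libraries of each label. The median log2 fold change of the members was -2.57 and -3.10 in Tfh_5 and Tfh_1 against Tfh_A with the label CD4Cre+, against -0.05 and -0.06 over all genes tested. It was -2.39 in Tfh_5 and -2.76 in Tfh_1 with the label CD4Cre-, against -0.09 and -0.04 over all genes tested. Il12rb2 had groups at 0 counts with the label CD4Cre+ only. Put at its bound there, it stayed under the median, so those medians could not move. In bulk RNA, fewer cells that express a gene and less of its RNA per cell cannot be told apart.

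**Figure D1:**
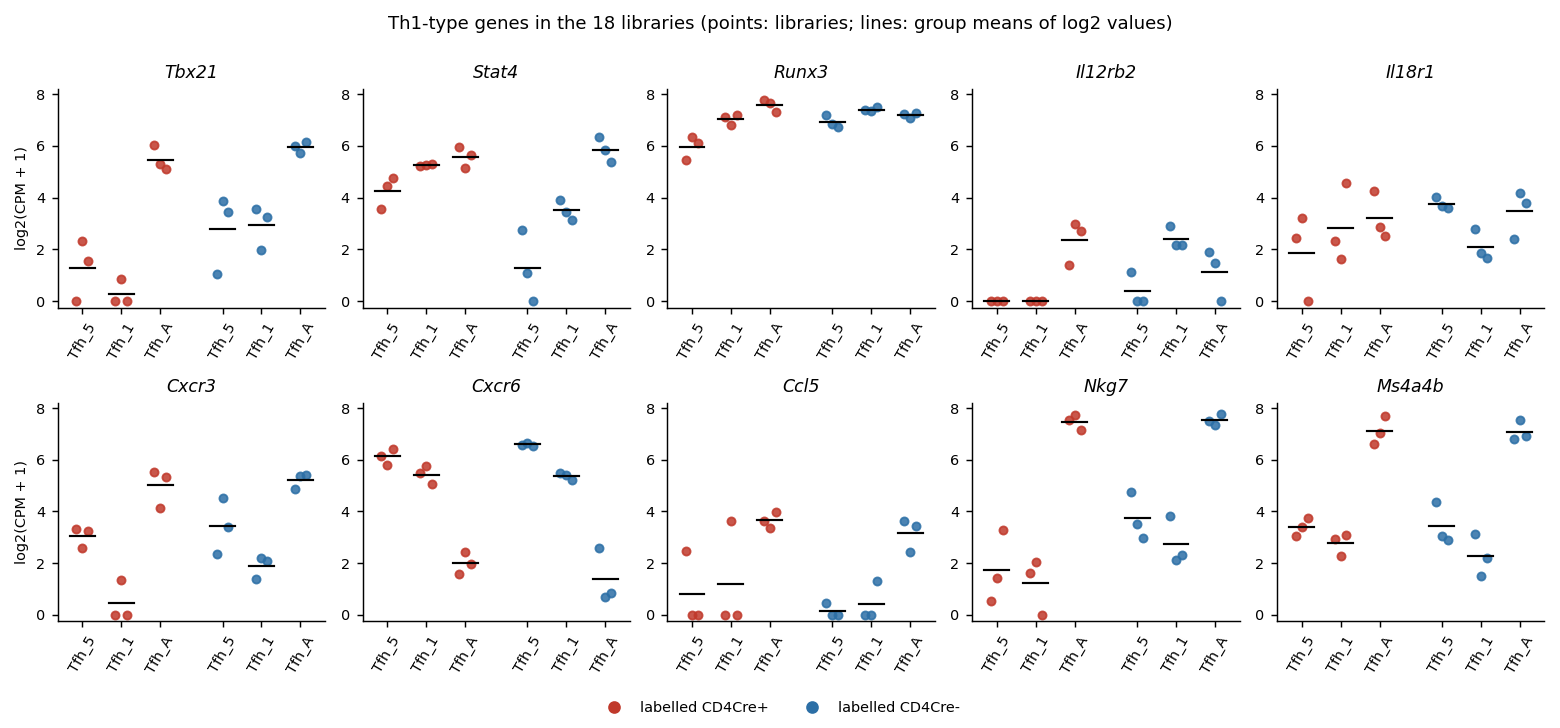
Level of each of the 10 Th1-type genes on the log2(CPM + 1) scale in the 18 libraries, by treatment, with libraries labelled CD4Cre+ on the left and CD4Cre- on the right of each panel. Points are libraries and black lines the means of the log2 values (n = 3). Nkg7 and Ms4a4b were high in Tfh_A and low in Tfh_5 and Tfh_1 with both labels, whereas Cxcr6 ran the other way.

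To set the sequence at the starts of these genes beside their levels, windows of 300 bases, from 250 before to 50 after an annotated start, were read for 9 of the 10 members from RefSeq on GRCm38.p6, 13 windows in all. Ccl5 was not among them. The windows of 4 members called lower in Tfh_5 or Tfh_1 than in Tfh_A (Nkg7, Ms4a4b, Tbx21 and Cxcr3) and of Cxcr6, which ran opposite, are printed 5′ to 3′ on the gene's strand, with capitals marking matches to the Runx motif TGTGGT and the T-box motif GGTGTGA on either strand:
Nkg7, chr7:43436888-43437187, plus strand: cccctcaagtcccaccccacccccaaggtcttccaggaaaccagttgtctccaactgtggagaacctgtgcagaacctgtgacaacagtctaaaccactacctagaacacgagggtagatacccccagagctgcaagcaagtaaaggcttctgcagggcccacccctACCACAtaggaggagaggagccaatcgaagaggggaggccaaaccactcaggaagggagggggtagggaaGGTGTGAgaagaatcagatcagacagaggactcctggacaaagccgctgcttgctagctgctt
Ms4a4b, chr19:11443308-11443607, plus strand: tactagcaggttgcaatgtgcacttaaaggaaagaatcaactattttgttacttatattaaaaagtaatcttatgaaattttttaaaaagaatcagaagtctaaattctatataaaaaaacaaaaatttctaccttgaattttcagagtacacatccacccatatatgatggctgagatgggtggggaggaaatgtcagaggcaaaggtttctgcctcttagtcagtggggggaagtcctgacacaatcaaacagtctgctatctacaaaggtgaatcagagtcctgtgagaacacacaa
Tbx21, chr11:97115282-97115581, minus strand: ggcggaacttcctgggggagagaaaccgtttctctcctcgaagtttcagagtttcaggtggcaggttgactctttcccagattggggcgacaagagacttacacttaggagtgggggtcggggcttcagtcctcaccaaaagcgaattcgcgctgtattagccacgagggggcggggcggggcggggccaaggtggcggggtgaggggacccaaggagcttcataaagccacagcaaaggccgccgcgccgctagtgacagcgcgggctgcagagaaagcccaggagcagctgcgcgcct
Cxcr3, chrX:101734098-101734397, minus strand: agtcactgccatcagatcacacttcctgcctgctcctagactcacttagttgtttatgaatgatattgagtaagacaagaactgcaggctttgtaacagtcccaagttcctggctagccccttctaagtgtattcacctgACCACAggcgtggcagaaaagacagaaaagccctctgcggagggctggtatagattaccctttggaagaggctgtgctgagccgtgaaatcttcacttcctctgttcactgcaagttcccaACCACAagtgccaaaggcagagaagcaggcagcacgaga
Cxcr6, chr9:123806227-123806526, plus strand: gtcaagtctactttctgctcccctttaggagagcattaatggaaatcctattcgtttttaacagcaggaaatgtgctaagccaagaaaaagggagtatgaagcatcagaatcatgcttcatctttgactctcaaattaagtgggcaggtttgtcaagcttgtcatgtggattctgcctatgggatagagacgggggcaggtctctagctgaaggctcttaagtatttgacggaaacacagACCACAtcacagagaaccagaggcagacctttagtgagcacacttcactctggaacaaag

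The Runx motif stood in 5 of the 13 windows (1 each of Il18r1, Runx3, Nkg7, Cxcr6 and Cxcr3), against 16.8% of 32851 windows of all genes. Cxcr3 held 2 matches, at -110 and 11 bases from the start, and Cxcr6 held 1, at -10. The T-box motif stood in the Nkg7 window alone among the 13, at -13, without overlap with that window's Runx match at -83, and in 3.98% of all windows. The STAT motif TTCNNNGAA was found in 3 windows (Il18r1, Il12rb2 and Nkg7; 8.30% of all windows) and the Smad motif CAGACA in 2 (Runx3 and Nkg7; 21.04% of all windows). The Maf motif TGCTGAC was in none, against 4.67% of all windows. The windows of Ms4a4b and Tbx21 held none of the 5 motifs. Cxcr6, which was high where Nkg7 was low, and Nkg7 thus each held a Runx match, and a match is a description of letters in the window, not a site.

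Among the transcription factors, Tbx21 (chromosome 11, 97098007 to 97115331), the gene of T-bet, was low in every Tfh_5 and Tfh_1 library. In CD4Cre+ libraries Tbx21 stood at 0, 4.02 and 1.94 CPM in Tfh_5 and at 0, 0.791 and 0 CPM in Tfh_1, against 63.9, 38.2 and 33.3 CPM in Tfh_A (replicates 1, 3 and 6). Tbx21 in CD4Cre- libraries stood at 1.04, 13.5 and 10.03 CPM in Tfh_5 and at 10.9, 2.89 and 8.51 CPM in Tfh_1, against 62.7, 52.5 and 70.2 CPM in Tfh_A (replicates 2, 4 and 5). No Tfh_5 or Tfh_1 library reached the lowest Tfh_A library. The log2 fold changes with the label CD4Cre+ were -4.48 ± 1.01 (SE) in Tfh_5 (adjusted p = 0.00829) and -7.40 ± 1.24 in Tfh_1 (adjusted p = 0.00120). In CD4Cre- libraries they were -2.92 ± 0.93 in Tfh_5 (adjusted p = 0.0799) and -3.05 ± 0.93 in Tfh_1 (adjusted p = 0.104), which did not pass in edgeR. Both were called lower by DESeq2, by limma-voom, with plain library sizes, with no count filter and in a fit of the 6 libraries compared alone. The difference between the labels was itself not called by edgeR in Tfh_5 (-1.56 ± 1.25, adjusted p = 0.762) or in Tfh_1 (-4.35 ± 1.46, adjusted p = 0.494), and with no count filter or in a fit of the 4 groups alone it was called in Tfh_1. The CD4Cre+ call in Tfh_5 was lost without Tfh_5 replicate 6 (adjusted p = 0.0572), and its fold change was -5.48 without Tfh_5 replicate 3. Without Tfh_1 replicate 3, which held 5 counts, the other Tfh_1 libraries of that label were at 0.

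Stat4 (chromosome 1, 51987106 to 52107189), which encodes the factor activated by IL-12, was lower in Tfh_5 and Tfh_1 in libraries labelled CD4Cre-. There it stood at 5.70, 1.14 and 0 CPM in Tfh_5 and at 14.2, 10.04 and 7.83 CPM in Tfh_1, against 79.6, 57.1 and 41.03 CPM in Tfh_A. The groups did not overlap, and the log2 fold changes against Tfh_A were -4.65 ± 0.69 in Tfh_5 (adjusted p = 2.84e-05) and -2.47 ± 0.62 in Tfh_1 (adjusted p = 0.0225). The Tfh_5 value was -6.59 without Tfh_5 replicate 2. The Tfh_1 call was lost on leaving out any library of either group except Tfh_A replicate 5, with adjusted p up to 0.141. Stat4 stood, with the label CD4Cre+, at 10.7, 20.6 and 25.8 CPM in Tfh_5 and at 36.4, 37.5 and 38.2 CPM in Tfh_1, against 61.7, 34.9 and 48.8 CPM in Tfh_A. Neither difference passed there (-1.34 ± 0.59, adjusted p = 0.222, in Tfh_5 and -0.37 ± 0.58, adjusted p = 0.902, in Tfh_1). Stat4 overlaps Gm31812 and Gm3940 in the annotation, and since no source used here says whether counting used strand, its reads cannot be told from theirs.

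Runx3 (chromosome 4, 135120645 to 135177990), which encodes a Runt-domain factor that acts with T-bet, was lower in Tfh_5 in libraries labelled CD4Cre+. It stood at 42.4, 79.9 and 68.4 CPM in Tfh_5 and at 139, 110.0 and 145 CPM in Tfh_1, against 219, 199 and 159 CPM in Tfh_A. Every Tfh_5 library lay below every Tfh_1 library, and every Tfh_1 library below every Tfh_A library. Against Tfh_A the log2 fold change was -1.59 ± 0.24 in Tfh_5 (adjusted p = 1.70e-05) and -0.55 ± 0.23 in Tfh_1 (adjusted p = 0.275). Runx3 in CD4Cre- libraries stood at 147, 113 and 106 CPM in Tfh_5 and at 166, 162 and 179.6 CPM in Tfh_1, against 151, 133 and 155 CPM in Tfh_A. Every Tfh_1 library lay above every other library of that label, while Tfh_5 and Tfh_A overlapped. Neither difference from Tfh_A was called by edgeR (-0.26 ± 0.23, adjusted p = 0.687, in Tfh_5 and 0.21 ± 0.23, adjusted p = 0.898, in Tfh_1). With plain library sizes the Tfh_5 difference was called lower.

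Among the effector genes, Nkg7 (chromosome 7, 43437138 to 43438246), whose product sits in the granules of cytotoxic lymphocytes, was low outside Tfh_A. In CD4Cre+ libraries Nkg7 stood at 0.453, 1.69 and 8.65 CPM in Tfh_5 and at 2.11, 3.16 and 0 CPM in Tfh_1, against 183, 210.1 and 141 CPM in Tfh_A. Nkg7 in CD4Cre- libraries stood at 25.8, 10.3 and 6.85 CPM in Tfh_5 and at 13.2, 3.35 and 4.05 CPM in Tfh_1, against 182, 163 and 217 CPM in Tfh_A. No library of Tfh_5 or Tfh_1 came near a Tfh_A library. The log2 fold changes with the label CD4Cre+ were -5.61 ± 1.01 in Tfh_5 (adjusted p = 0.00409; -7.29 without Tfh_5 replicate 6) and -6.63 ± 1.08 in Tfh_1 (adjusted p = 0.00399; -7.27 without Tfh_1 replicate 3). In CD4Cre- libraries they were -3.70 ± 0.90 in Tfh_5 (adjusted p = 0.0292; -4.44 without Tfh_5 replicate 2) and -4.78 ± 0.96 in Tfh_1 (adjusted p = 0.0179; -5.65 without Tfh_1 replicate 2). The CD4Cre- call in Tfh_5 was lost on leaving out any library of either group except Tfh_5 replicate 2, with adjusted p up to 0.124. The CD4Cre- call in Tfh_1 was lost without Tfh_A replicate 5, Tfh_1 replicate 4 or Tfh_1 replicate 5, with adjusted p up to 0.103. Nkg7 is also a gene of NK cells. The NK and innate lymphoid list summed to 8.43 to 29.04 CPM in Tfh_5 and 29.9 to 41.97 in Tfh_1, against 14.97 to 19.6 in Tfh_A, with the label CD4Cre+. The same list with the label CD4Cre- summed to 26.1 to 38.02 CPM in Tfh_5 and 25.1 to 66.1 in Tfh_1, against 12.98 to 28.2 CPM in Tfh_A. The part of NK and innate lymphoid cells in the Nkg7 levels was not tested.

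Ms4a4b (chromosome 19, 11443558 to 11463549), a membrane protein gene of the Ms4a family expressed in Th1 and naive T cells of the mouse, was also low outside Tfh_A. In CD4Cre+ libraries Ms4a4b stood at 7.40, 9.60 and 12.3 CPM in Tfh_5 and at 6.71, 3.79 and 7.48 CPM in Tfh_1, against 97.6, 130.2 and 204 CPM in Tfh_A. Ms4a4b in CD4Cre- libraries stood at 19.7, 7.26 and 6.52 CPM in Tfh_5 and at 7.75, 1.83 and 3.65 CPM in Tfh_1, against 111, 183 and 121 CPM in Tfh_A. Each Tfh_A library lay above every other library of its label. The log2 fold changes with the label CD4Cre+ were -3.88 ± 0.46 in Tfh_5 (adjusted p = 1.54e-07) and -4.58 ± 0.48 in Tfh_1 (adjusted p = 5.24e-08). In CD4Cre- libraries they were -3.62 ± 0.45 in Tfh_5 (adjusted p = 7.96e-07; -4.32 without Tfh_5 replicate 2) and -4.98 ± 0.49 in Tfh_1 (adjusted p = 1.42e-08; -5.64 without Tfh_1 replicate 2). The 4 calls held under every alternative run. Ms4a4b had fractional counts in 7 of 18 libraries, and since Ms4a genes include close copies, some of its reads may be shared with another member.

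Ccl5 (chromosome 11, 83525778 to 83530518), which encodes a chemokine that draws T cells and monocytes, passed edgeR's test in no comparison, and limma-voom called it lower in Tfh_5 against Tfh_A with both labels. In CD4Cre+ libraries Ccl5 stood at 4.53, 0 and 0 CPM in Tfh_5 and at 0, 11.5 and 0 CPM in Tfh_1, against 11.5, 9.27 and 14.6 CPM in Tfh_A. Ccl5 in CD4Cre- libraries stood at 0.389, 0 and 0 CPM in Tfh_5 and at 0, 0 and 1.49 CPM in Tfh_1, against 11.3, 4.39 and 9.98 CPM in Tfh_A. It was thus at 0 in 2 of 3 libraries of each Tfh_5 and Tfh_1 group and above 0 in all 6 Tfh_A libraries. Over the counts of the CD4Cre- groups, Tfh_5 was 57.6-fold lower than Tfh_A (3 against 227 counts, 95% counting interval 19.5 to 281), with adjusted p = 0.182 in edgeR. Ccl5 overlaps Gm32650, whose reads likewise cannot be told apart.

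Of the chemokine receptor genes, Cxcr6 (chromosome 9, 123806477 to 123811754), whose product binds CXCL16, was the member that was higher in Tfh_5 and Tfh_1. In CD4Cre+ libraries Cxcr6 stood at 69.9, 54.9 and 85.3 CPM in Tfh_5 and at 43.6, 52.8 and 32.2 CPM in Tfh_1, against 2.01, 4.43 and 2.87 CPM in Tfh_A. Cxcr6 in CD4Cre- libraries stood at 95.1, 99.7 and 92.6 CPM in Tfh_5 and at 43.9, 41.7 and 36.3 CPM in Tfh_1, against 4.99, 0.613 and 0.799 CPM in Tfh_A. In each label the order was Tfh_5, Tfh_1, Tfh_A with no overlap between neighbours. The log2 fold changes with the label CD4Cre+ were 4.46 ± 0.51 in Tfh_5 (adjusted p = 8.56e-08) and 3.75 ± 0.50 in Tfh_1 (adjusted p = 5.68e-06). In CD4Cre- libraries they were 5.53 ± 0.54 in Tfh_5 (adjusted p = 4.20e-09; 7.05 without Tfh_A replicate 2) and 4.30 ± 0.52 in Tfh_1 (adjusted p = 6.30e-07; 5.81 without Tfh_A replicate 2). All 4 calls held under every alternative run. Cxcr6 overlaps Fyco1 in the annotation, and their reads cannot be told apart without strand.

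Cxcr3 (chromosome X, 101731535 to 101734147), the receptor gene of the interferon-induced chemokines CXCL9 and CXCL10 and a T-bet target, ran opposite to Cxcr6 and was lowest in Tfh_1. In CD4Cre+ libraries Cxcr3 stood at 8.91, 5.06 and 8.39 CPM in Tfh_5 and at 0, 1.58 and 0 CPM in Tfh_1, against 44.9, 16.7 and 39.8 CPM in Tfh_A. Cxcr3 in CD4Cre- libraries stood at 4.15, 22.1 and 9.53 CPM in Tfh_5 and at 1.65, 3.65 and 3.24 CPM in Tfh_1, against 28.1, 40.2 and 41.5 CPM in Tfh_A. Tfh_1 libraries lay below all others of their label. In Tfh_1 the log2 fold change against Tfh_A was -6.00 ± 0.97 with the label CD4Cre+ (adjusted p = 1.39e-04) and -3.67 ± 0.83 with the label CD4Cre- (adjusted p = 0.00860). The CD4Cre- call was lost without Tfh_A replicate 5 (adjusted p = 0.0508), without Tfh_1 replicate 2 (adjusted p = 0.0751) and with limma-voom (adjusted p = 0.0575). Without Tfh_1 replicate 3 of the label CD4Cre+, which held 10 counts, the rest of that group was at 0. In Tfh_5 the difference from Tfh_A did not pass in edgeR, at -2.18 ± 0.78 (adjusted p = 0.105) with the label CD4Cre+ and -1.62 ± 0.76 (adjusted p = 0.284) with the label CD4Cre-. The CD4Cre+ difference was called lower by DESeq2, with no count filter and in a fit of the 6 libraries compared alone.

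**Figure D2:**
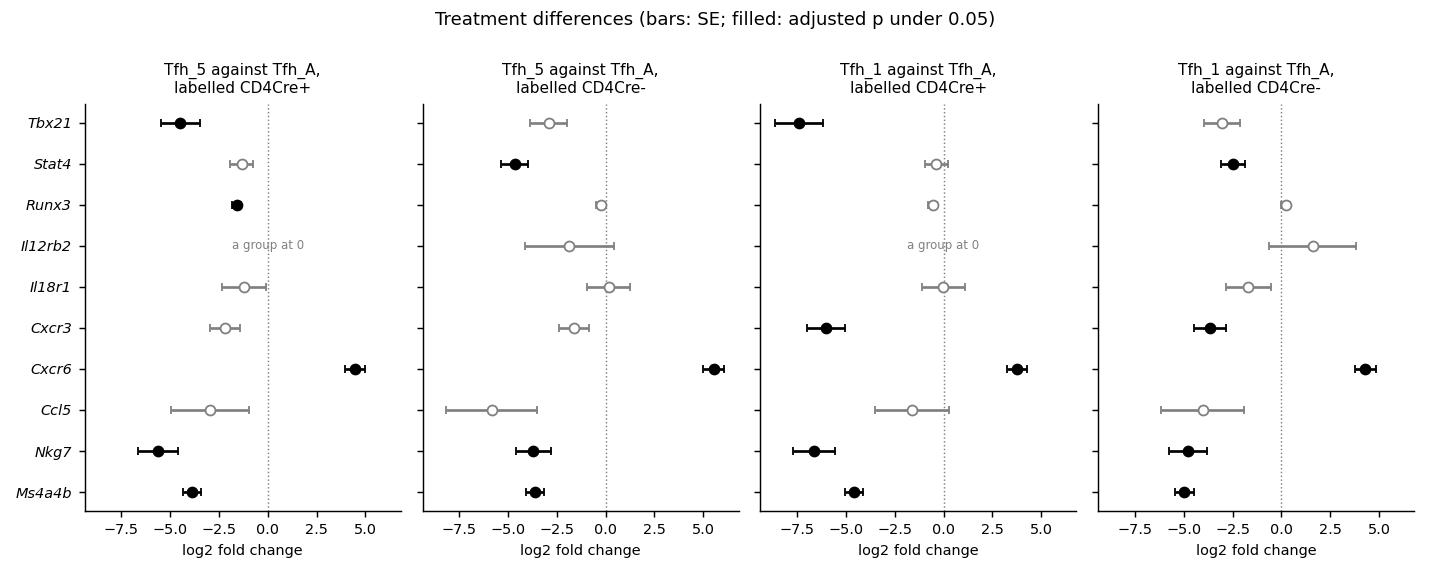
Log2 fold change of each member in Tfh_5 and in Tfh_1 against Tfh_A, in libraries labelled CD4Cre+ and CD4Cre-. Bars are SE, filled points passed edgeR's test (adjusted p under 0.05), and no point is drawn for Il12rb2 where a group was at 0 counts. Cxcr6 lay right of 0 in all 4 panels, while Nkg7 and Ms4a4b lay left of 0.

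The cytokine receptor genes were low and passed edgeR's test in no comparison. Il12rb2 (chromosome 6, 67285986 to 67376293), the inducible chain of the IL-12 receptor, was at 0 counts in all 6 libraries labelled CD4Cre+ in Tfh_5 and Tfh_1, against 1.64, 6.95 and 5.62 CPM in Tfh_A. With 0 counts set to 3 for the whole group, it was at least 38.7-fold lower in Tfh_5 and at least 35.99-fold lower in Tfh_1, but edgeR's test did not pass (adjusted p = 0.122 and 0.177). limma-voom and DESeq2 each called Il12rb2 lower in both of those comparisons. Il12rb2 in CD4Cre- libraries stood at 1.17, 0 and 0 CPM in Tfh_5 and at 6.43, 3.50 and 3.51 CPM in Tfh_1, against 2.7, 1.74 and 0 CPM in Tfh_A. Tfh_1 was thus the highest CD4Cre- group and one of the groups at 0 with the label CD4Cre+. Il12rb2 overlaps Serbp1 and LOC115490490. Il18r1 (chromosome 1, 40465552 to 40500854) overlapped between treatments within each label, except in Tfh_5 against Tfh_1 with the label CD4Cre-. It stood at 4.38, 8.17 and 0 CPM in Tfh_5 and at 3.97, 2.06 and 22.8 CPM in Tfh_1, against 18.1, 6.25 and 4.79 CPM in Tfh_A, with the label CD4Cre+. Il18r1 in CD4Cre- libraries stood at 15.4, 11.8 and 11.03 CPM in Tfh_5 and at 5.94, 2.59 and 2.16 CPM in Tfh_1, against 4.32, 17.2 and 12.98 CPM in Tfh_A. In Tfh_5 every CD4Cre+ library lay below every CD4Cre- library, and neither that difference (adjusted p = 0.565) nor the one between Tfh_5 and Tfh_1 with the label CD4Cre- (adjusted p = 0.584) passed.

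Tfh_5 and Tfh_1 were also set against each other. Cxcr3 was higher in Tfh_5 with the label CD4Cre+ (7.45 ± 2.09 against 0.527 ± 0.913 CPM, SD, n = 3; log2 fold change 3.83 ± 0.91, adjusted p = 0.0154). Runx3 was lower in Tfh_5 (63.6 ± 19.2 against 131 ± 18.9 CPM; -1.05 ± 0.24, adjusted p = 0.0108). Thus 1 of 10 members was higher, where 0.426% of all genes were, and 1 was lower, where 1.32% were. Both calls were lost in a fit of these 6 libraries alone (adjusted p = 0.576 for Cxcr3 and 0.0588 for Runx3). Cxcr3 was also lost without Tfh_1 replicate 1 or 6 (adjusted p up to 0.0993), and without Tfh_1 replicate 3 the rest of that group was at 0. Runx3 was also lost without Tfh_1 replicate 6 or Tfh_5 replicate 1 (adjusted p up to 0.0938) and with plain library sizes (adjusted p = 0.0526). Between the CD4Cre- groups, edgeR called 0 members and 0.554% of all genes. There 4 members and 1218 of all 11735 genes had an unadjusted p under 0.05. The smallest adjusted p there was 0.126, for Stat4 (2.28 ± 3.02 CPM in Tfh_5 against 10.7 ± 3.22 in Tfh_1, -2.18 ± 0.64), which DESeq2 called, while limma-voom called Cxcr6 (95.8 ± 3.59 against 40.6 ± 3.88 CPM).

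The genotype comparison asked how libraries with the labels CD4Cre+ and CD4Cre- differed within a treatment. In Tfh_5, 1 of 10 members was higher with the label CD4Cre+, where 1.19% of all genes were, and 1 was lower, where 2.05% were. Stat4 averaged 19.1 ± 7.67 CPM with the label CD4Cre+ and 2.28 ± 3.02 CPM with the label CD4Cre-, and every CD4Cre+ library lay above every CD4Cre- library (log2 fold change 3.02 ± 0.65, adjusted p = 0.00552). Runx3 averaged 63.6 ± 19.2 CPM with the label CD4Cre+ and 122 ± 22.1 CPM with the label CD4Cre-, again without overlap (-0.94 ± 0.24, adjusted p = 0.0180). Both calls were lost in a fit of the 6 libraries compared alone (adjusted p = 0.280 for Stat4 and 0.243 for Runx3). Stat4 was also lost with limma-voom (adjusted p = 0.0525), and its fold change was 4.96 without CD4Cre- replicate 2. Runx3 was also lost with plain library sizes (adjusted p = 0.0894), without CD4Cre- replicate 2 (adjusted p = 0.0882) and without CD4Cre+ replicate 1 (adjusted p = 0.146). Both factors thus differed between labels in opposite directions under 1 treatment, and the Maf level went against these labels.

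In Tfh_1, edgeR called 0 of 10 members between the labels, with 0.852% of all genes called. An unadjusted p under 0.05 was found for 4 members and for 1243 of all 11735 genes. Tbx21 came nearest (0.264 ± 0.456 CPM with the label CD4Cre+ and 7.43 ± 4.11 CPM with the label CD4Cre-, -4.80 ± 1.18, adjusted p = 0.0629), and DESeq2 called it. Stat4 stood at 37.4 ± 0.925 CPM with the label CD4Cre+ and 10.7 ± 3.22 CPM with the label CD4Cre-, without overlap (1.81 ± 0.60, adjusted p = 0.214). Il12rb2 was at least 30.03-fold lower with the label CD4Cre+ (0 against 88 counts), with adjusted p = 0.300 in edgeR, and limma-voom called it. In Tfh_A, edgeR called 0 members and 0 of all 11735 genes, and 606 genes and 0 members had an unadjusted p under 0.05. DESeq2 called 18 genes there and limma-voom 3, and 0 of them were members. The medians of the members were -0.81 in Tfh_5, -0.14 in Tfh_1 and -0.01 in Tfh_A, against 0.00, -0.02 and 0.00 over all genes.

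**Figure D3:**
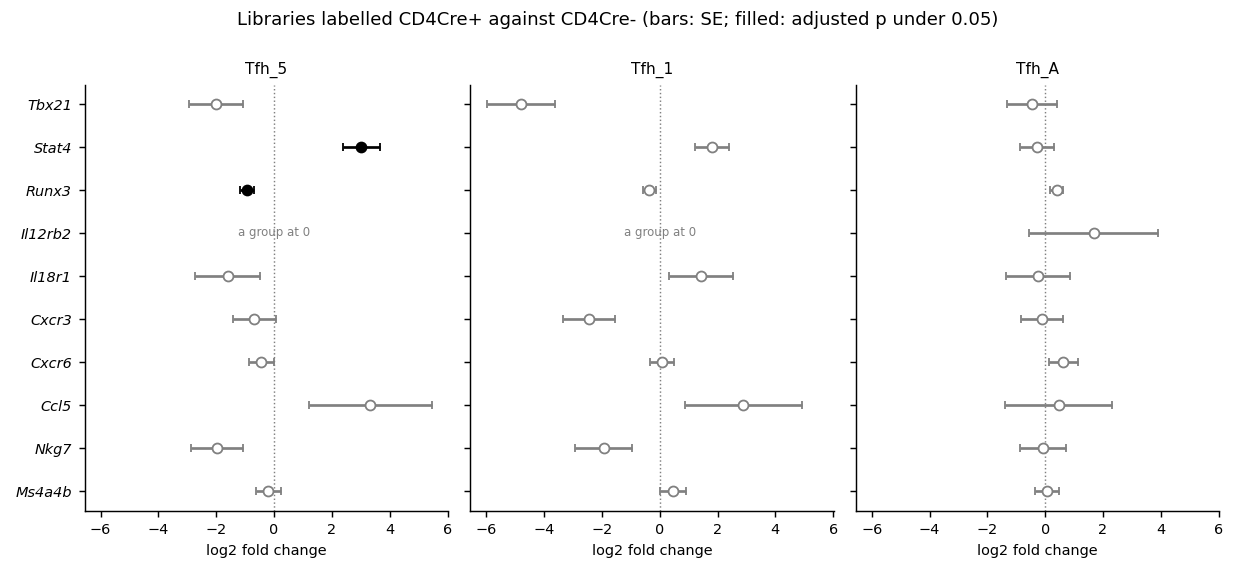
Log2 fold change of each member in libraries labelled CD4Cre+ against CD4Cre-, within Tfh_5, Tfh_1 and Tfh_A. Bars are SE, filled points passed edgeR's test (adjusted p under 0.05), and no point is drawn for Il12rb2 where a group was at 0 counts. Only Stat4 and Runx3, both in Tfh_5, are filled, on opposite sides of 0.

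Whether the genotype effect differed between treatments was tested as an interaction. Between Tfh_5 and Tfh_A, 1 of 10 members passed, in the lower direction, where 0.861% of all genes did, and 0 members passed in the higher direction, where 0.332% did. The genotype effect on Runx3 was -0.94 in Tfh_5 and 0.39 ± 0.23 in Tfh_A, a difference of -1.33 ± 0.33 (adjusted p = 0.0325). That call was lost in a fit of the 4 groups alone (adjusted p = 0.0924), with plain library sizes (-0.86, adjusted p = 0.307) and without any 1 of 7 libraries: Tfh_A replicates 2, 4 and 5 and Tfh_5 replicate 2 of the label CD4Cre-, and Tfh_A replicates 1 and 3 and Tfh_5 replicate 1 of the label CD4Cre+ (adjusted p up to 0.114). For Stat4 the difference was 3.31 ± 0.87 (adjusted p = 0.0503), just outside the threshold. It was called higher with RLE factors, plain library sizes, no count filter, without the 2 most abundant identifiers, with the replicate block and by DESeq2. It was not called by limma-voom or in a fit of the 4 groups alone. Of the fits that left out 1 library, it was called only without CD4Cre- Tfh_5 replicate 2 or 5 or CD4Cre+ Tfh_5 replicate 1. Between Tfh_1 and Tfh_A, 0 members passed, where 0.239% of all genes did. At an unadjusted p under 0.05 there were 4 members and 826 of all 11735 genes. Between Tfh_5 and Tfh_1, 0 members passed, where 0.0597% of all genes did. At an unadjusted p under 0.05 there were 0 members and 992 genes. DESeq2 and limma-voom also called 0 members in both.

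Other genes of the Th1 pathway were followed in 7 lists of 65 genes, of which 54 were tested. In libraries labelled CD4Cre+, 3 were higher and 7 lower in Tfh_5 against Tfh_A, where 2.39% and 3.00% of all genes were, and 1 was higher and 3 lower in Tfh_1 against Tfh_A, where 1.58% and 0.997% were. In those labelled CD4Cre-, 3 were higher and 5 lower in Tfh_5 against Tfh_A, where 3.17% and 1.91% of all genes were, and 1 was higher and 2 lower in Tfh_1 against Tfh_A, where 1.50% and 0.733% were. A count of 1 higher is near the share over all genes. Ifng, the gene of interferon-γ, was listed at 0 in 17 of 18 libraries and held 9 counts in replicate 1 of Tfh_A with the label CD4Cre+, so the defining cytokine of Th1 cells was not detectable in the other libraries at this depth. Eomes, a T-box gene related to Tbx21, was at most 6.49 CPM. Havcr2 and Ms4a4a were at 0 in all libraries.

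Gzmb, which encodes the protease granzyme B, was lower outside Tfh_A in 3 of the 4 comparisons. It averaged 1.94 ± 3.35 CPM in Tfh_5 and 0 in Tfh_1, against 122 ± 68.3 CPM in Tfh_A, with the label CD4Cre+ (adjusted p = 0.0326 and 0.0130). The Tfh_5 call was lost in a fit of the 6 libraries alone and in 5 of 6 fits that left out 1 library (adjusted p up to 0.134), and the Tfh_1 call without Tfh_1 replicate 1 (adjusted p = 0.0501). Gzmb in CD4Cre- libraries averaged 0.216 ± 0.374 CPM in Tfh_5 and 3.35 ± 3.55 in Tfh_1, against 102 ± 26.8 CPM in Tfh_A. The CD4Cre- difference was called in Tfh_5 (-8.65 ± 1.72, adjusted p = 0.0133), and the call was lost without Tfh_5 replicate 4 or 5 (adjusted p up to 0.0625). In Tfh_1 it did not pass (-4.94 ± 1.34, adjusted p = 0.104). Ms4a6b, another Ms4a family gene, was lower in Tfh_5 than in Tfh_1 and lower in Tfh_1 than in Tfh_A with both labels. It averaged 108 ± 7.02, 223 ± 21.2 and 451 ± 41.2 CPM in Tfh_5, Tfh_1 and Tfh_A with the label CD4Cre+ and 70.8 ± 22.1, 142 ± 45.2 and 363 ± 58.3 CPM with the label CD4Cre-. All 6 comparisons between these treatments passed (adjusted p from 1.26e-08 to 0.0361). The call of Tfh_1 against Tfh_A with the label CD4Cre+ was lost without Tfh_1 replicate 1 (adjusted p = 0.0657), and that of Tfh_5 against Tfh_1 without Tfh_1 replicate 6 or Tfh_5 replicate 3 (adjusted p up to 0.0565). The call of Tfh_5 against Tfh_1 with the label CD4Cre- was lost in a fit of the 6 libraries alone, with limma-voom and without Tfh_1 replicate 2 or 4 or Tfh_5 replicate 5 (adjusted p up to 0.203).

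Gadd45g, which encodes a stress-kinase activator of the IL-12 and IL-18 response, and Lta, the lymphotoxin α gene, were lower in Tfh_5 against Tfh_A with the label CD4Cre+ (-2.56 ± 0.39, adjusted p = 1.92e-05, and -1.86 ± 0.43, adjusted p = 0.00455). Both were also lower with the label CD4Cre+ than with the label CD4Cre- in Tfh_5 (-2.08 ± 0.38, adjusted p = 6.62e-04, and -1.87 ± 0.43, adjusted p = 0.00728). The Lta genotype call was lost without CD4Cre+ replicate 6 (adjusted p = 0.0727).

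Id2, which encodes an inhibitor of E proteins and favours Th1 over Tfh cells, was lower with the label CD4Cre+ in Tfh_5. It averaged 416 ± 67.3 CPM in Tfh_5 with the label CD4Cre+ and 936 ± 92.1 CPM with the label CD4Cre- (-1.17 ± 0.19, adjusted p = 1.88e-04). Id2 with the label CD4Cre- was higher in Tfh_5 than in Tfh_A (364 ± 80.4 CPM; 1.36 ± 0.19, adjusted p = 7.56e-06), and the genotype effect differed between Tfh_5 and Tfh_A (-1.42 ± 0.27, adjusted p = 0.00252; with plain library sizes adjusted p = 0.0633). Bhlhe40, a cytokine regulator, was lower in Tfh_5 against Tfh_A with the label CD4Cre+ (37.6 against 117 CPM, -1.64 ± 0.32, adjusted p = 8.45e-04). In the interferon-γ list of 10 genes, 9 were tested. Of these, 1 was higher (3.17% of all genes) and 2 were lower (1.91%) in Tfh_5 against Tfh_A with the label CD4Cre-. Irf8 was higher (75.3 CPM in Tfh_5 against 16.4 CPM in Tfh_A, 2.20 ± 0.46, adjusted p = 0.00183), Socs1 lower (19.05 against 73.1 CPM, -1.94 ± 0.43, adjusted p = 0.00399) and Gbp2 lower (67.04 against 156 CPM, -1.22 ± 0.28, adjusted p = 0.00419). The Gbp2 call was lost without Tfh_A replicate 4 or Tfh_5 replicate 5 (adjusted p up to 0.0561). With the label CD4Cre+, 1 of the 9 was lower (3.00% of all genes) in the same comparison, Gbp7, which was at 0 in Tfh_5 against 12.9 ± 7.36 CPM in Tfh_A.

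**Figure D4:**
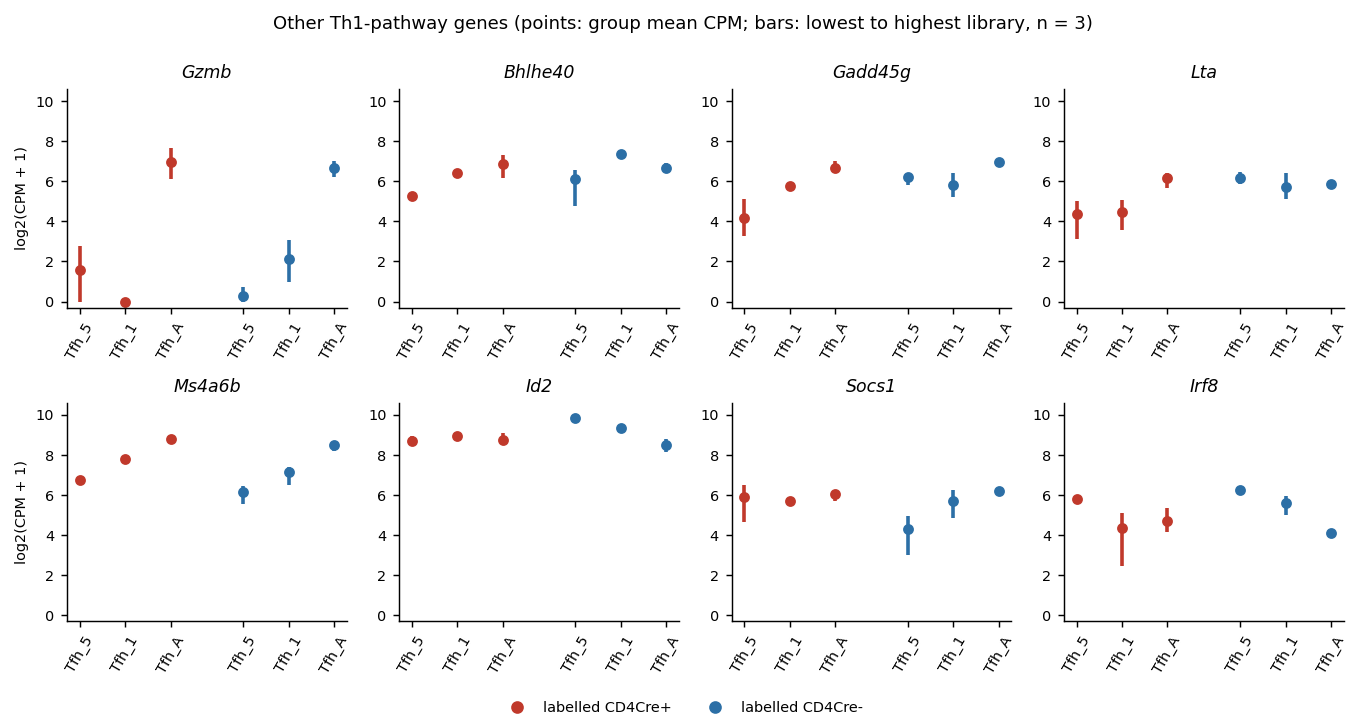
Level of 8 other Th1-pathway genes on the log2(CPM + 1) scale by treatment, with libraries labelled CD4Cre+ on the left and CD4Cre- on the right of each panel. Points are group means of CPM and bars run from the lowest to the highest of 3 libraries. Gzmb and Ms4a6b were highest in Tfh_A with both labels, whereas Id2 was highest in Tfh_5 with the label CD4Cre-.

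The genes whose levels ran most like each called member over the 18 libraries were found by the root mean square (RMS) difference of log2(CPM + 1), each gene centred on its mean. For Cxcr6 the nearest was Il17a, the cytokine gene of Th17 cells, at 0.46, against the 2.07 RMS by which Cxcr6 itself varied. Il17a averaged 147 CPM in Tfh_5 and 113 in Tfh_1, against 7.64 CPM in Tfh_A, with the label CD4Cre+. Il17a with the label CD4Cre- averaged 165 CPM in Tfh_5 and 111 in Tfh_1, against 6.20 CPM in Tfh_A. Nipal1 (0.69) and Prr5l (0.78) came next. For Ms4a4b the nearest were Mndal at 0.53, Serpinb9b at 0.68 and Il3 at 0.76, against its own 2.04, and for Nkg7 they were Mndal at 0.95, Serpinb9b at 1.15 and Gzmb at 1.15, against 2.65. Serpinb9b was at 0 in all Tfh_5 and Tfh_1 groups and averaged 24.6 CPM with the label CD4Cre+ and 22.3 CPM with the label CD4Cre- in Tfh_A. For Stat4, Id3 at 0.77 and Itga4 at 0.84 were among the nearest, against 1.67. The nearest to Tbx21 was S100a6 (1.02 against 2.18), to Cxcr3 Tagap (0.98 against 1.75) and to Runx3 Park7 (0.27 against 0.56). These likenesses describe these libraries, in which the points share 6 groups.

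Markers of other cell types also moved with treatment. The NK and innate lymphoid list, given beside Nkg7, was higher in every Tfh_1 library than in any Tfh_A or Tfh_5 library with the label CD4Cre+. The 6 B cell markers summed to 0 to 1.82 CPM in Tfh_5 and 0 to 0.163 in Tfh_1, against 7.12 to 28.00 CPM in Tfh_A, with Pax5 at 0 in all libraries. In CD4Cre- libraries they summed to 2.71 to 11.01 CPM in Tfh_5 and 15.8 to 25.1 in Tfh_1, against 11.2 to 23.8 CPM in Tfh_A, so that Tfh_5 lay below Tfh_A without overlap with both labels. Their part in the differences of the Th1-type genes was not tested. Myeloid and dendritic markers summed to at most 10.4 CPM, and the 2 of 5 γδ T cell markers that were matched to at most 9.24 CPM.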

How the data were processed

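Per the labels' protocols, a Lexogen FWD kit for 3′ ends of mRNA was used on 50 ng of RNA, so a gene is read near its polyadenylated end. The authors deposited expected counts of each gene. The submitters' processing notes name STAR 2.7.2b, featureCounts 1.6.4 and mm10. They are not normalized, 11.7% to 18.1% of the values per library are not whole, and the division of reads and the strand setting are not given in the sources used here. The planned test assumed whole counts, so values were rounded to whole numbers. Entrez identifiers were named through RefSeq genes of GRCm38.p6, which matched 25275 of 27179. Coordinates of genes are those of that assembly.

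Groups were compared by edgeR 4.0.16 under R 4.3.3 (TMM factors of 0.830 to 1.389, filterByExpr, quasi-likelihood fit, robust, over 18 libraries with a mean for each group). P-values were adjusted by Benjamini-Hochberg over all 11735 genes of a comparison, with a threshold of 0.05, in 12 comparisons: the genotype label in each treatment, the treatments within each label, and the differences between genotype effects. SE are the size of the log2 fold change over the square root of F. A group at 0 counts was set at a floor of 3 counts over the group, and folds on 1 to 3 counts carry an exact 95% counting interval. Floors and intervals cover counting error only. Total counts of 6424874 to 9236153 limit what can be seen of low genes. The fit was tested on simulated data.

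Named genes are the 10 members, Maf, of each pathway list up to 4 genes a comparison that passed and reached 10 CPM in the higher group, and for each called member the 3 genes most like it. Ifng, Eomes, Bcl6, Havcr2 and Ms4a4a were named after their values were seen, and some genes that the rule names are not reported here. The members and lists were chosen with earlier results of these data known. Alternatives were RLE factors, plain library sizes, no count filter, leaving out the 2 most abundant identifiers, a replicate block, a fit of the compared groups alone, limma-voom (limma 3.58.1), DESeq2 1.42.0 and leaving out each library.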

Additional observations from a re-analysis of the deposited data

Results flagged for a closer look

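The genotype effect on Runx3 differed between treatments by edgeR's interaction test: it was -0.94 ± 0.24 (log2, SE) in Tfh_5 and 0.39 ± 0.23 in Tfh_A, CD4Cre+ label minus CD4Cre- label, a difference of -1.33 ± 0.33 (adjusted p = 0.0325). In Tfh_5, all 3 libraries labelled CD4Cre+ (42.4 to 79.9 CPM) lay below all 3 labelled CD4Cre- (106 to 147 CPM). In Tfh_A, all 3 labelled CD4Cre+ (159 to 219 CPM) lay above all 3 labelled CD4Cre- (133 to 155 CPM). The genotype effect in Tfh_A was itself not called. With plain library sizes the difference was -0.86 (adjusted p = 0.307). The adjusted p ran from 0.00413 to 0.307 over the alternatives other than leaving out 1 library, and from 0.0145 to 0.114 on leaving out 1 library.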

How the results depend on the processing

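Of 340 values of the 24 member calls under the alternatives, 299 kept the call and the direction, 41 kept the direction and lost the call, and 0 reversed. 14 of the 24 calls were kept in all. RLE factors, no count filter, leaving out the 2 most abundant identifiers and DESeq2 lost 0 of 24, limma-voom 3, plain library sizes 3, a fit of the compared groups alone 5 and leaving out a library 29 of 150. Of the 36 calls on pathway genes, 14 were kept in all alternatives. The number of members called moved as follows, and the cause was not tested. For the genotype label in Tfh_5, 2 in the edgeR fit, it was 1 with plain library sizes, 4 with no count filter, 0 with the compared groups alone and 1 with limma-voom. In Tfh_1 (0) it was 3 with no filter and 1 each with the compared groups alone, limma-voom and DESeq2. For Tfh_5 against Tfh_1 with the label CD4Cre+ (2) it was 1 with plain sizes, 0 with the compared groups alone and 1 with limma-voom. With the label CD4Cre- (0) it was 2 with no filter and 1 each with the replicate block, limma-voom and DESeq2. For the difference of genotype effects between Tfh_5 and Tfh_A (1) it was 2 with RLE factors, 3 with no filter, 2 without the 2 most abundant identifiers, 2 with the replicate block, 0 with the compared groups alone and 2 with DESeq2. DESeq2 gave no adjusted p for Tbx21, Il12rb2, Il18r1, Cxcr3 and Ccl5 in that difference, so these could not be called. Il12rb2 likewise had none in the fit of Tfh_5 and Tfh_1 alone with the label CD4Cre+. Against Tfh_A the number of members called ran from 5 to 7 for Tfh_5 (5) and 5 to 6 for Tfh_1 (5) with the label CD4Cre+, and from 3 (replicate block) to 6 for Tfh_5 (4) and 5 to 6 for Tfh_1 (5) with the label CD4Cre-. For the difference between Tfh_1 and Tfh_A (0) it was 1 with no filter and 2 with the compared groups alone. On leaving out 1 library it ranged over 1 to 2 (genotype in Tfh_5), 0 to 2 (in Tfh_1) and 0 to 0 (in Tfh_A). For treatments with the label CD4Cre+ it ranged over 4 to 5 (Tfh_5 against Tfh_A), 5 to 5 (Tfh_1 against Tfh_A) and 0 to 2 (Tfh_5 against Tfh_1). With the label CD4Cre- it ranged over 3 to 4, 3 to 4 and 0 to 1 in the same comparisons, and for the differences of genotype effects over 0 to 2, 0 to 1 and 0 to 0. Where 2 libraries were left in a group, the spread was shared with the other groups.

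Plain library sizes moved the median log2 fold change of all genes to -0.64 in Tfh_5 and -0.47 in Tfh_1 against Tfh_A with the label CD4Cre-, against -0.09 and -0.04 with TMM, and to 0.44 in the difference of genotype effects between Tfh_5 and Tfh_A, against -0.01. In Tfh_5 against Tfh_A with the label CD4Cre-, 143 of 952 called genes were then higher, against 372 of 596 with TMM. The replicate numbers of the labels were tried as a block. Libraries of the same number correlated in their deviations from the group means by at most 0.066 over 9 pairs with the label CD4Cre+. With the label CD4Cre- the highest was 0.027 over 9 pairs. Libraries of different numbers reached 0.047 with the label CD4Cre+ and 0.024 with the label CD4Cre-, over 18 pairs each. Correlations this low over all tested genes cannot show whether a number stands for a shared mouse or batch. Under the block Nkg7 in Tfh_5 against Tfh_A with the label CD4Cre- had adjusted p = 0.0559, and no other member call was lost. No paired analysis was possible between genotype labels because they share no replicate number. Low counts limit Il12rb2, Ccl5 and Il18r1 at this depth.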
